A study of Schizosaccharomyces pombe with 4 samples.

Results

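The 7 transcripts described here encode proteins of the meiotic chromosome axis and of meiotic recombination in fission yeast (*Schizosaccharomyces pombe*), out of 6986 genes in the deposited table. They were taken by systematic identifier: rec10 (SPAC25G10.04c), hop1 (SPBC1718.02), mek1 (SPAC14C4.03), rec7 (SPCC1753.03c), rec12 (SPAC17A5.11), dmc1 (SPAC8E11.03c) and meu13 (SPAC222.15). All 7 passed the filter on low values. RNA sequencing had been done on total RNA of a set2 deletion strain (SPKK1227, genotype set2d, 2 libraries) and of a wild-type strain (WT972, here WT, 2 libraries). Both strains were growing asynchronously in log phase in YEA medium at 30 °C, so these are vegetative cells and not a meiotic culture. No other allele or agent is named in the labels. They do not say whether the 2 libraries of a strain are separate cultures. The p-values therefore reflect only how these libraries vary, and that variation may be technical.

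Set2 methylates histone H3 at lysine 36 on transcribed genes. In meiotic prophase, fission yeast chromosomes are organised along linear elements, the counterpart of the axial elements of other organisms. DNA breaks made by Rec12 on this axis can be repaired on the homologous chromosome. Most genes of this pathway are kept low in growing cells, through dedicated transcription factors and through removal of meiotic mRNAs by the RNA-binding protein Mmi1. Transcription factor complexes of the MBF family, built on Cdc10 with Res1 and Res2, bind the MluI box ACGCGT, and a form with Res2 and Rep1 acts on early meiotic genes.

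The set2 transcript itself had 2257 and 1448 normalized counts in set2d, against 10503 and 8665 in WT (log2 change -2.40, SE 0.22, limma adjusted p = 0.00041, and 0.0607 with no filter on low values), so reads were still counted there. The median gene had 5347 and 5518 normalized counts in set2d and 5175 and 5050 in WT. Of 6633 genes tested, 767 (11.6%) were higher in set2d and 184 (2.77%) lower by limma at a Benjamini-Hochberg adjusted p under 0.05. With the libraries shifted to equal medians, the split was 617 higher and 343 lower, and with quantile normalization it was 579 higher and 282 lower. Leaving out WT replicate 1, WT replicate 2, set2d replicate 1 or set2d replicate 2 gave 488, 421, 324 and 354 higher, and 86, 68, 45 and 70 lower.

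A sequence feature shared by most of the 7 genes is the MluI box in the 300 bases before the start codon. It was present before 6 of the 7 genes, all but mek1, whereas 170 of 5112 protein-coding genes (3.33%) had it. The sites of the 6 genes that have the box are shown. Each is 30 bases on the strand of the gene, 5′ to 3′, from the ASM294v3 reference, with the boxes in capitals.
rec10: caactaccagctACGCGTccaatatacaag
hop1: acttaagACGCGTtcgACGCGTtcacaaaa
rec7: aggttcagtctaACGCGTcttctcatattc
rec12: aaagaatgctgaACGCGTccagaaagtaaa
dmc1: caatatttcgcgACGCGTtcattgtttaca
meu13: gaaaACGCGTtgtctccgccACGCGTaaat
In ASM294v3 these stretches lie at chrI:4303869-4303898 (minus strand) for rec10, chrII:3472231-3472260 (plus) for hop1 and chrIII:1549084-1549113 (minus) for rec7. Those of rec12, dmc1 and meu13 lie on the plus strand, at chrI:1772891-1772920, chrI:3382053-3382082 and chrI:977611-977640. The first base of the box was 109 bases before the start codon in rec10, 32 in rec7, 22 in rec12 and 267 in dmc1. The 2 boxes of hop1 began at 81 and 72 bases, and those of meu13 at 94 and 78. ACGCGT reads the same on both strands. Of 2 other motifs searched on both strands, the core GTAAACA of the site of the meiotic factor Mei4 was before rec7 and dmc1 (15.2% of all genes) and the core TTCTTTG of the Ste11 site before rec12 and meu13 (11.8%). No motif match was found in the window before mek1. No binding was measured, so a match is a description only.

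The normalized counts of rec10 and mek1 rose in set2d, about 5.03-fold and 4.08-fold. For mek1 they may include an opposite-strand RNA, described below. The changes of hop1, rec7, rec12, dmc1 and meu13 did not pass the test. Thus 2 of the 7 were higher, beside 11.6% of all genes, and 0 were lower by limma. In the main fit none was lower at a raw limma p under 0.05. With no mean-variance trend none was lower at an adjusted p under 0.05. With the replicate number as a block 1 was, rec12 (limma adjusted p = 0.0354). That block fit gave rec10 a limma adjusted p of 4.85e-44, which rests largely on variance pooled across genes. The median log2 change of the 7 was 0.05, and that of all genes tested was 0.01.

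**Figure D1:**
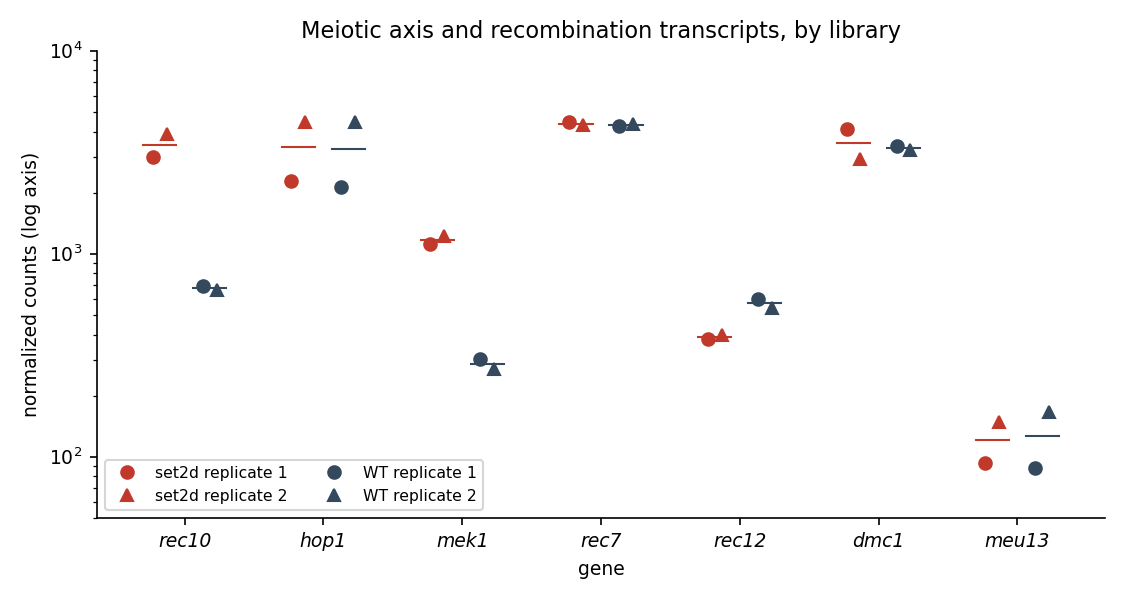
Normalized counts of the 7 transcripts (log axis) in each library, set2d left of WT, with circles for replicate 1, triangles for replicate 2 and a line at the group mean. The set2d libraries stand above WT for rec10 (3012 and 3889, against 696 and 665) and mek1 (1123 and 1219, against 303 and 271), and hop1 and meu13 spread by replicate number in both strains.

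Of the axis genes, rec10 encodes the main structural protein of linear elements. It had 3012 and 3889 normalized counts in set2d, against 696 and 665 in WT. Both set2d libraries were above both WT libraries, as for 31.5% of all genes tested. The gap between the strains was larger than that between replicates. Means were 3450 ± 620 in set2d and 680 ± 22.0 in WT (SD, n = 2 each), a log2 change of 2.33 (SE 0.20, 95% interval 1.86 to 2.80, limma adjusted p = 0.000312). Within number 1 the log2 difference was 2.11, and within number 2 it was 2.55. The genes next to rec10 did not follow it. The histidine biosynthesis gene his1, 462 bases upstream, had a log2 change of -0.34 (limma adjusted p = 0.0897), and cce1, the nearest separate gene downstream, one of -0.05. The transcription factor gene zip1, which overlaps 1.4% of rec10 on the opposite strand, was at -0.11. The annotation also has a non-coding RNA, SPNCRNA.3930, on the opposite strand of 14.2% of rec10, which was not analysed here.

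The other axis gene, hop1, encodes a HORMA-domain protein that joins linear elements and helps activate the kinase Mek1. It had 2291 and 4433 normalized counts in set2d, against 2138 and 4454 in WT. The groups overlapped almost completely, and the spread lay between the replicate numbers. The library numbered 2 was 1.93-fold above number 1 in set2d and 2.08-fold in WT. Same-numbered libraries of the strains also share a prefix in their titles, the meaning of which is not given. The log2 change between strains was 0.05 with a 95% interval of -0.83 to 0.93 (limma adjusted p = 0.957). That fit leaves out the library number, and in it a change of almost 1 in either direction was not detectable. With the replicate number as a block the change was again 0.05, with an SE of 0.14 against 0.38 in the main fit. The smaller SE rests largely on variance pooled across genes. Within number 1 the log2 difference was 0.10, and within number 2 it was -0.01. The flanking gene pop1, for a ubiquitin ligase subunit, did not show this spread by number (5038 and 5628 in set2d, 6456 and 6530 in WT). Neither did ker1, for a protein of RNA polymerase I, 475 bases downstream of hop1. It rose to 15983 and 14124 in set2d, against 7893 and 9486 in WT (log2 change 0.80, limma adjusted p = 0.00643), a call lost when either set2d replicate was left out and with no filter on low values (adjusted p = 0.0871).

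The kinase gene mek1 encodes a meiosis-specific checkpoint kinase that acts on the axis. It had 1123 and 1219 normalized counts in set2d, against 303 and 271 in WT. Both set2d libraries were again above both WT libraries, as for 31.5% of all genes tested, and replicates of a strain lay close together. Means were 1171 ± 68.0 in set2d and 287 ± 23.1 in WT (SD, n = 2 each), with a log2 change of 2.03 (SE 0.24, 95% interval 1.49 to 2.57, limma adjusted p = 0.00114). The log2 difference was 1.89 within number 1 and 2.17 within number 2. The upstream non-coding RNA SPNCRNA.1062, 174 bases away, had 603 and 1039 in set2d, against 644 and 1100 in WT, and did not pass. A non-coding RNA annotated on the opposite strand of 98.9% of mek1, SPNCRNA.4358, was not analysed here, and without a known strand setting its reads cannot be told apart from those of mek1. The calls of rec10 and mek1 held in each of the 11 alternative fits, with log2 changes of 2.15 to 2.52 for rec10 and 1.88 to 2.11 for mek1.

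Among genes for break formation, rec12 encodes the topoisomerase-like protein that cuts DNA (Spo11 in other species). It had 379 and 396 normalized counts in set2d, against 596 and 543 in WT. Both set2d libraries were below both WT libraries, as for 26.2% of all genes tested. The log2 change was -0.55 (SE 0.24, 95% interval -1.11 to 0.01) and did not pass (limma adjusted p = 0.182, 0.0354 to 0.638 over the alternative fits). Its downstream neighbour ucp7, 54 bases away, went the other way in value at 0.47 and did not pass either.

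The second break-formation gene, rec7, encodes a partner of the Rec12 complex (Rec114 in budding yeast). It had 4440 and 4300 normalized counts in set2d, against 4257 and 4361 in WT. The 4 libraries were nearly level. The log2 change was 0.02, and its 95% interval of -0.30 to 0.34 was the narrowest of the 7 (limma adjusted p = 0.945).

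The strand-exchange gene dmc1 encodes a meiosis-specific recombinase, which pairs a broken end with the homologue. It had 4122 and 2931 normalized counts in set2d, against 3393 and 3231 in WT. The WT libraries lay between the set2d libraries. The log2 change was 0.07 (95% interval -0.37 to 0.51, limma adjusted p = 0.853), and the difference was 0.28 within number 1 and -0.14 within number 2.

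The gene meu13 encodes the counterpart of Hop2, which works with Mcp7 to promote homologous pairing by Dmc1. It was the weakest of the 7, with 93.5 and 149 normalized counts in set2d, against 88.4 and 166 in WT. As for hop1, the libraries numbered 2 were above those numbered 1 in both strains, by 1.60-fold in set2d and 1.87-fold in WT. The log2 change was -0.03 with a wide 95% interval of -1.02 to 0.95 (limma adjusted p = 0.971). Its value in set2d replicate 1 corresponds to 88.0 reads, with a counting error of 10.7%.

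**Figure D2:**
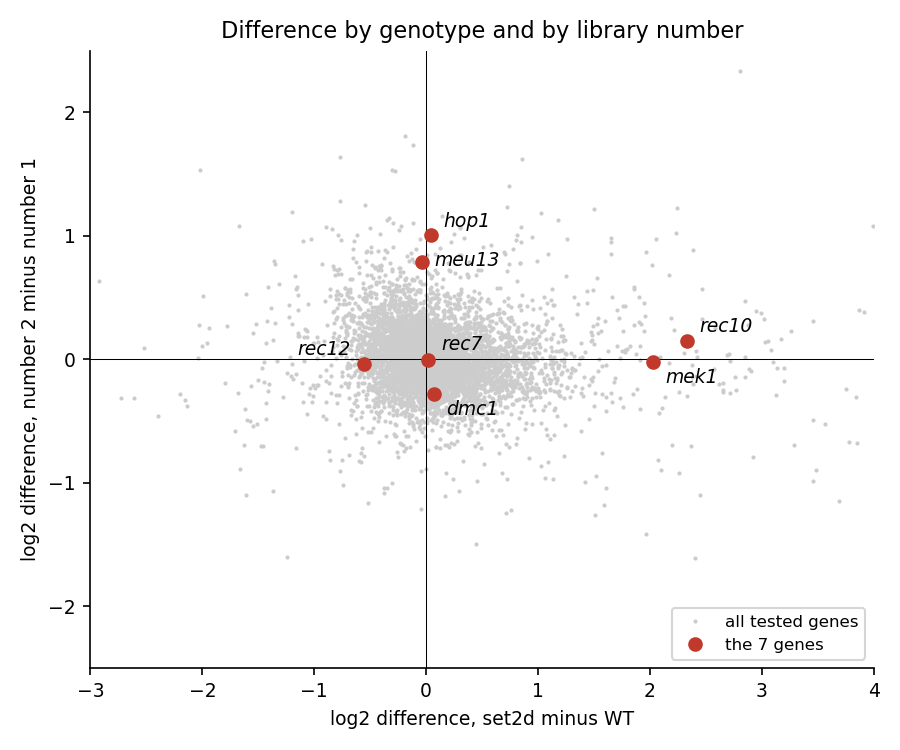
Log2 difference between strains (set2d minus WT, horizontal) against the log2 difference between library numbers (number 2 minus number 1, vertical) for all tested genes (grey) and the 7 genes (red). The genes rec10 and mek1 lie far to the right at 2.33 and 2.03, while hop1 and meu13 lie high on the vertical axis near 0 on the horizontal. The axes leave 31 grey genes outside.

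Per length, the 7 transcripts were ordered differently in the strains. In set2d, levels in normalized counts per kilobase of annotated exon were 3305 for dmc1, 2353 for rec7, 2118 for hop1, 1365 for rec10, 875 for mek1, 374 for rec12 and 187 for meu13. In WT they were 3104 for dmc1, 2320 for rec7, 2077 for hop1, 549 for rec12, 269 for rec10, 214 for mek1 and 195 for meu13. Single libraries of hop1 overlapped those of dmc1, rec7 and rec10 in set2d and those of rec7 in WT, and mek1 and meu13 overlapped in WT. Among protein-coding genes, rec10 was at percentile 12.0 in set2d and 3.7 in WT, and mek1 at 6.8 and 3.3. The counts per length of both thus remained low after their rise. The annotation gives no untranslated region for hop1, mek1, rec12 and meu13, and the annotation used for counting is not known, so these lengths are approximate.

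Several of the genes that did not pass lie under non-coding RNAs, some of which were counted with nearly the same values. SPNCRNA.1602 covers 95.1% of hop1 on the opposite strand. It had 2295 and 4426 normalized counts in set2d and 2124 and 4436 in WT, between 0.993 and 1.00 times those of hop1 in the 4 libraries. SPNCRNA.760 covers all of rec12, with 415 and 440 in set2d and 641 and 606 in WT, or 1.08 to 1.12 times rec12. It had a log2 change of -0.55, equal to that of rec12. SPNCRNA.904 covers all of dmc1 at 1.10 to 1.28 times its counts. Over rec7 lie SPNCRNA.1203, SPNCRNA.132, tos1 and tos2. Of these tos1 alone, on 56.6% of rec7, had nearly its counts, at 0.989 to 1.05 times. SPNCRNA.1203, on all of rec7, had 1.40 to 1.68 times its counts. SPNCRNA.132 and tos2 had 0.253 to 0.282 and 0.340 to 0.410 times. For hop1, rec7, rec12 and dmc1 the table therefore does not tell the gene from its opposite-strand partner, and the spread of hop1 by number applies to both.

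**Figure D3:**
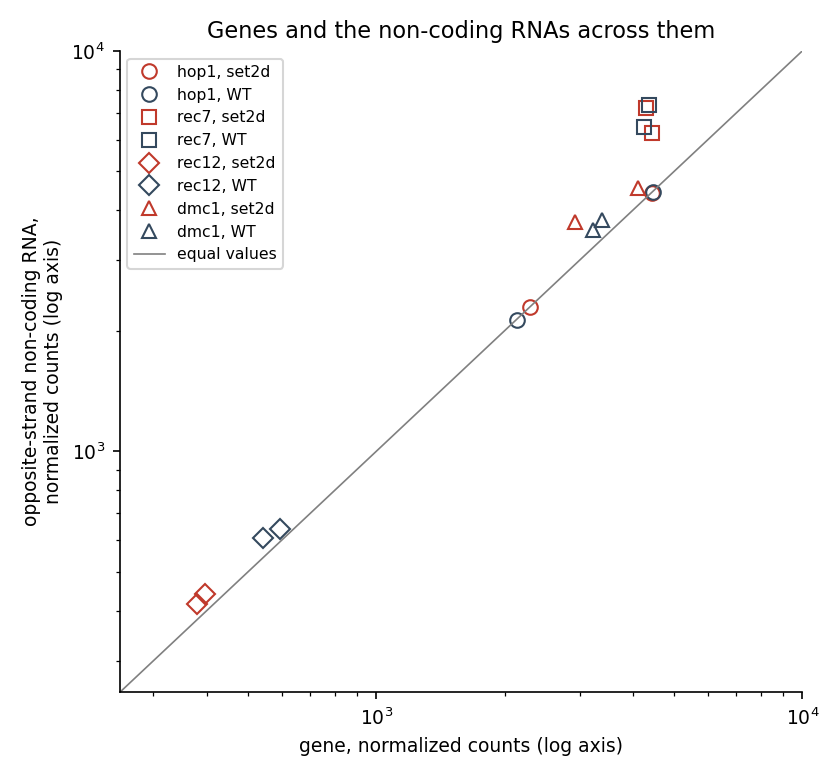
Normalized counts of hop1, rec7, rec12 and dmc1 (horizontal) against those of the non-coding RNA that covers over 90% of each on the opposite strand (vertical), with log axes, set2d in red and WT in dark blue, and a point for each library. The points of hop1 lie on the line of equal values, those of rec12 and dmc1 just above it, and those of rec7 at 1.40 to 1.68 times the gene.

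The 5 genes most like rec10 over the 4 libraries, by Euclidean distance between centred log2 values, were hry1 (0.148), the DIPSY-family glycoprotein gene pfl9 (0.182), SPCC663.08c (0.229), tgd1 (0.260) and SPNCRNA.1093 (0.267). All but SPCC663.08c lie 50.2 to 81.3 kb from a chromosome end, whereas the 7 genes here lie 346.6 to 2195.7 kb from one, mek1 being the closest. The share of all tested or called genes that near an end was not counted, so these distances are a description only. At 0.356 mek1 would rank as number 8 among the other tested genes, with hry1 counted. The gene hry1 was at the floor of the scale in both WT libraries and passed the filter only through set2d (39.3 and 54.7 normalized counts). Its log2 change of 2.21 is therefore no fixed size. Its distance to rec10 is also set by the floor, so its first place is no sign of likeness.

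Other genes of meiotic prophase and its control were described through 8 lists of 85 measured genes. Of these, 5 were higher (5.88%) and 3 lower (3.53%) in set2d, beside 11.6% and 2.77% of all genes tested, and their median log2 change was 0.00. With any single library left out, 1 to 3 were higher and 1 to 2 lower. With no filter on low values 1 was higher, rdh54 (limma adjusted p = 0.0459), and 0 lower, so the calls of rec11, dhc1, spo5, pat1, ste11, mei2 and res2 were lost. None of the 8 further genes for linear elements and break formation passed limma in either direction, and 1, rec24, was lower by the raw p at 0.05. Its protein works with Rec7, and it had 1003 and 1243 normalized counts in set2d, against 1706 and 1709 in WT (log2 change -0.61, limma adjusted p = 0.0853). The break-formation gene mde2, which med10 covers on the opposite strand, had a log2 change of -0.45 and did not pass. The list's median was -0.25, and its values ran from -0.61 to 0.40. In all 8 lists some genes overlap opposite-strand features, not all of which are given here.

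Of 10 cohesin genes, 1 was higher and 0 lower, with a median of 0.00. This was rec11, for a meiotic cohesin subunit that brings Rec10 to chromosome arms. It rose to 1231 and 1562 in set2d, against 709 and 693 in WT (log2 change 0.98, SE 0.22, limma adjusted p = 0.0211). The call was lost on leaving out each library in turn. SPNCRNA.1180, on the opposite strand of 32.4% of rec11, rose with it by 1.54 on the log2 scale. The meiotic kleisin gene rec8 was at 471 and 585 in set2d, against 464 and 467 in WT, and did not pass. SPNCRNA.5714, on the opposite strand of 90.4% of rec8, was not analysed here. The values of pds5 and moa1 were 0.48 and -0.86, and moa1 was at the floor in both set2d libraries.

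Of 14 strand-exchange genes, 1 was higher and 0 lower, with a median of 0.02. This was rdh54, for a Rad54-type translocase. It had 9235 and 10832 normalized counts in set2d, against 3363 and 3879 in WT (log2 change 1.47, SE 0.15, limma adjusted p = 0.000527). The opposite-strand gene atf31, a transcription factor gene over 56.6% of rdh54, had 8766 and 10208 in set2d, against 3190 and 3594 in WT, so the rise cannot be assigned to either. The partner of Meu13, mcp7, had a log2 change of -0.30 and did not pass. The values of rad52 and rdl1 were 0.35 and -0.35. Of 12 genes for end processing and crossover resolution, 0 passed limma in either direction (0 higher and 2 lower by raw p at 0.05), with rad50 at a log2 change of 0.36.

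Of 11 genes for horsetail movement, which pulls the nucleus to and fro in prophase, 1 was higher and 0 lower. The dynein heavy chain gene dhc1 had 5538 and 7354 in set2d, against 3501 and 3926 in WT (log2 change 0.78, limma adjusted p = 0.0195), a call lost without WT replicate 1, without either set2d replicate and without a variance trend (adjusted p = 0.0654). On the opposite strand of dhc1, SPNCRNA.1006 (over 13.2%) and the gene hca4 (over 1.5%) rose by 0.89 and 0.45 on the log2 scale. Further non-coding RNAs annotated there were not analysed here. The values of bqt2 and num1 (mcp5), -0.87 and 0.41, did not pass. Of 10 genes for meiotic divisions and spores, spo5, for an RNA-binding protein, rose to 989 and 895, against 396 and 389 in WT (log2 change 1.26, limma adjusted p = 0.00865). Its call was lost without WT replicate 2 and without either set2d replicate. The values of mes1 and mfr1 were -0.38 and 0.32.

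**Figure D4:**
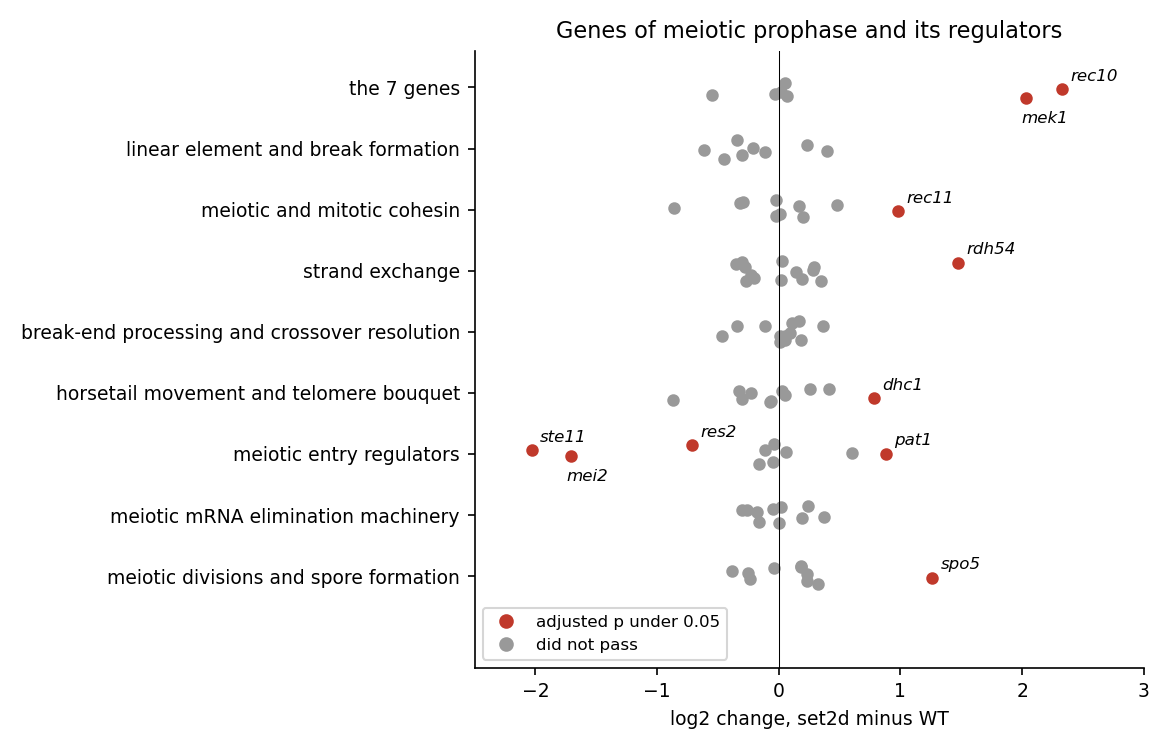
Log2 change (set2d minus WT, horizontal) of the 7 genes and of 8 lists, a point for each gene, red where the adjusted p was under 0.05. In the top row rec10 (2.33) and mek1 (2.03) stand apart from the other 5, and the lists hold 5 genes higher and 3 lower.

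The regulators of meiotic entry moved in both directions, with 1 of 10 higher and 3 lower. The master regulator gene ste11 fell to 934 and 1211 normalized counts in set2d, against 4089 and 4629 in WT (log2 change -2.03, limma adjusted p = 0.000461). Its call was kept without each single library, and the adjusted p was 0.0504 with no filter on low values. The meiotic inducer gene mei2 fell to 236 and 204, against 993 and 516 in WT (log2 change -1.71, limma adjusted p = 0.014), a call lost without WT replicate 1 and without either set2d replicate. The gene pat1, for the kinase that inhibits Mei2 and Ste11, rose by 0.88 on the log2 scale, but a non-coding RNA not analysed here covers it on the opposite strand. Its call was lost without WT replicate 2, without either set2d replicate and without a variance trend (adjusted p = 0.052). The MBF subunit gene res2 had 2199 and 2579 in set2d, against 3651 and 4162 in WT (log2 change -0.71, limma adjusted p = 0.026), a call lost on leaving out each library in turn and without a variance trend (adjusted p = 0.0531). The other MBF genes res1, cdc10 and rep1 were at 0.06, -0.05 and -0.11, mei4 at 0.60 and mei3 at -0.16, none passing. The MluI box stood before 4 of 8 genes of linear elements and breaks, 5 of 10 cohesin genes, rec11 among them, 3 of 14 strand-exchange genes and 3 of 11 horsetail genes. It stood before 1 of 10 genes of mRNA elimination, and before 0 of 12 of end processing, 0 of 10 entry regulators and 0 of 10 of divisions and spores.

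None of 10 measured genes of the meiotic mRNA elimination machinery passed limma in either direction (1 higher and 0 lower by raw p at 0.05). Their log2 changes ran from -0.30 for iss10 to 0.37 for red1, and mmi1 had 6778 and 6301 in set2d, against 6448 and 6579 in WT. The core motif of Mmi1, written TTAAAC in DNA letters, was searched on the sense strand of coding sequences after the values were seen. It was in rec10 (2 copies), mek1 (1), dmc1 (1) and meu13 (2), or 4 of the 7 genes, and in 33% of all protein-coding genes. Of transcripts known to be removed through Mmi1, spo5 rose as above, and rec8, mei4, ssm4 and crs1 had log2 changes of 0.17, 0.60, 0.03 and -0.24 and did not pass. Single opposite-strand features overlap up to 90.4% of rec8, 66.7% of mei4, 57.1% of ssm4 and 37.2% of crs1. Without a known strand setting, reads of these features cannot be told apart from those of the genes.

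Cells that had begun to mate would carry transcripts of mating genes. Of 9 such markers that could be tested, 0 were higher in set2d and 3 lower, beside 11.6% and 2.77% of all genes tested. The 3 were the pheromone gene mfm2, and ste11 and mei2, whose calls are those given above for the entry regulators. Of the markers that did not pass, map2, mam2 and map3 had log2 changes of 0.16, 0.41 and 0.26. Those of mfm1, mfm3 and mei3 were -1.37, -0.24 and -0.16. The sum of the 9 and the untested marker was 36493 and 32421 normalized counts in set2d, against 34434 and 33306 in WT. The pheromone gene map2 and the pheromone receptor gene map3 made up 87.4% and 82.4% of this sum in set2d, against 76.9% and 73.4% in WT, so the sum says little of the other markers. The untested marker, at the mating-type locus, was at the floor in all 4 libraries.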

How the data were processed

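Total RNA of log-phase set2d (2 libraries) and WT cells (2 libraries) had been sequenced on an Illumina HiSeq, per the labels' protocols. Per the submitters' processing notes, STAR 2.5.4b, featureCounts 1.5.0-p1 and the build ASM294v2 were used. The authors deposited log2 values of normalized counts, floored at 10. For the normalization, the annotation and the strand setting, no method is stated by the sources used here.

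Values were unlogged for display. The design applied limma 3.58.1 (R 4.3.3) with a mean-variance trend to the log2 values. A gene entered if 2 or more libraries were above the floor, which kept 6633 and dropped 353. Two-sided p-values were adjusted by Benjamini-Hochberg over these 6633, and calls needed an adjusted p under 0.05. Residual degrees of freedom were 2 and prior ones 6.164. The procedure was tested on simulated data. Low values in set2d replicate 1 were whole multiples of 1.06 normalized counts within 0.012 for 100% of the genes under 400, so reads are known there. In the other libraries the best step was met by 23.5% to 77.0% of genes between 10 and 100 normalized counts. Between 100 and 400 it was met by 2.56% to 7.53%. Their depth was therefore taken as unknown, and a level-dependent scaling by the authors may shift weak genes. Counting errors cover counting only.

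Locus tags (6840 of 6986 matched) gave names, overlaps, neighbours, exon lengths and distances from ASM294v3. Its coordinates were not combined with those of the authors' build. None of the 7 genes shared a stretch of 50 bases with another place in the genome. The gene sme2 was not analysed here.

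The 7 genes, the lists and the motifs were chosen with earlier results of these data known. Named genes were the 7, set2, their overlapping and nearest genes, called members of 8 lists, and otherwise the 2 with the largest change per list. The 5 genes most like the most changed called gene were added. A gene that this rule names is not reported here. The genes res1, cdc10, rep1, rec8, mcp7, mmi1, ssm4, crs1, mfm1, mfm2, mfm3, map2, mam2 and map3 were named after their values were seen. So were SPNCRNA.1006 and hca4, which overlap dhc1. Alternatives were other scalings and filters, a pseudocount of 10, no variance trend, the replicate number as a block, and leaving out each library.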

Additional observations from a re-analysis of the deposited data

How the results depend on the processing

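The calls of rec10 and mek1 held in all 11 alternatives, with adjusted p up to 0.045 for both, and 2 of the 7 genes were higher in each. No other of the 7 passed, except rec12 with the replicate block (log2 change -0.55, adjusted p = 0.0354), where 1 gene was lower. Same-numbered libraries deviated together (Pearson r of 0.451 across 6633 genes), and share a prefix in their titles, but the labels do not say what number or prefix marks. With the block 1380 genes were higher and 847 lower, and in the 8 lists 11 and 10. These block counts rest largely on variance pooled across genes, and are no sharper test of the same libraries. Without a variance trend 499 were higher and 103 lower, and 3 list genes higher. With no filter on low values the counts were 177 and 21, and 1 and 0 in the lists. Genes lower were 343 with shifted medians and 282 with quantile normalization. With a library left out, 324 to 488 genes were higher and 45 to 86 lower, and in the lists 1 to 3 higher and 1 to 2 lower. The cause was not tested, beyond the fewer libraries.

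Values near 0 changed sign. With shifted medians hop1 was -0.05, rec7 -0.07, dmc1 -0.02, SPNCRNA.1602 -0.04, SPNCRNA.132 -0.08 and SPAC222.18, next to meu13, -0.02. With quantile normalization hop1 was -0.04, rec7 -0.07, SPNCRNA.1602 -0.03, SPNCRNA.132 -0.14 and SPAC222.18 -0.02. With a library left out, hop1 ranged from -0.48 to 0.58, rec7 from -0.0028 to 0.04, dmc1 from -0.18 to 0.32 and meu13 from -0.49 to 0.42. Of the other named genes, mei3 ranged from -0.79 to 0.47, cce1 from -0.24 to 0.14, SPNCRNA.1602 from -0.48 to 0.59, SPNCRNA.1062 from -0.48 to 0.30, SPNCRNA.1203 from -0.14 to 0.07, SPNCRNA.132 from -0.04 to 0.06, tos1 from -0.05 to 0.03 and SPAC8E11.04c from -0.46 to 0.01. None of these passed the test in any fit.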
